A study of Homo sapiens with 12 samples.

Results

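The ABL kinases ABL1 and ABL2 and 8 genes for proteins that bind them or carry their signal were examined across the 6 libraries of a study of ABL kinases in medulloblastoma, a childhood brain tumour of the cerebellum. The 10 genes were taken by symbol from the 49677 genes of the deposited count table: ABL1, ABL2, CRK, CRKL, NCK1, NCK2, GRB2, CBL, CBLB and STAT5B. All 10 were found, and all 10 had enough counts in both groups to be tested. The cells were D283, an established medulloblastoma line commonly used as a model of Group 3 tumours with amplified MYC. The control group had received a scrambled control and is labelled as control genotype, and the other group had ABL1 and ABL2 inactivated together. Both groups shared the line and the medium. The sources used here do not give how the genes were inactivated or whether the cells were a clone or a pool. Each group had 3 libraries of enriched mRNA, each read on 2 lanes that were summed, with 33505903 to 49034159 counts per library. Nothing in the labels states that libraries of 1 group were grown as different cultures. The p-values therefore cover just the spread between these samples, which may be technical.

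ABL1 and ABL2 are non-receptor tyrosine kinases that link growth factor receptors, adhesion and DNA damage to the actin cytoskeleton and to transcription. They bind small adaptor proteins made of SH2 domains, which hold phosphotyrosine, and SH3 domains, which hold proline-rich stretches, and they phosphorylate several of them. CRK and CRKL are the best known of these substrates, NCK1 and NCK2 lead to actin nucleation, GRB2 leads to RAS, CBL and CBLB are ubiquitin ligases that remove active receptors and kinases, and STAT5B is a transcription factor that ABL fusion kinases activate in leukaemia. Most of this control acts on protein, by phosphorylation and binding, and the values here are of mRNA only.

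Reference promoter sequences from RefSeq (GRCh38.p14) are shown for 4 genes around which the results turn, the targeted pair and the 2 members with the largest increase. Each is the stretch of 250 bases just before an annotated start, 5′ to 3′ on the gene's strand, in lower case with capitals where 1 of 4 searched motifs matched. That of ABL1 lies at chr9:130835004-130835253 (forward strand), that of ABL2 at chr1:179143077-179143326 (reverse strand), that of GRB2 at chr17:75405679-75405928 (reverse strand) and that of STAT5B at chr17:42276392-42276641 (reverse strand).
ABL1: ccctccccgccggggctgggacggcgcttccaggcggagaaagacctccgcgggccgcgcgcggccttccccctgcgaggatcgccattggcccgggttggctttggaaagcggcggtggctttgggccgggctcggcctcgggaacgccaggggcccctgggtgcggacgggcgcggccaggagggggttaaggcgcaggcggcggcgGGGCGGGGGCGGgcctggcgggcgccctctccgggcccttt
ABL2: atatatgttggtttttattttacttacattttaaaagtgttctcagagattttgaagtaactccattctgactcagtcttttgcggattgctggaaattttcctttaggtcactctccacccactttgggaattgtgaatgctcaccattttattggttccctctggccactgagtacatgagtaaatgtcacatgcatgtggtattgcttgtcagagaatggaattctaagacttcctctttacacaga
GRB2: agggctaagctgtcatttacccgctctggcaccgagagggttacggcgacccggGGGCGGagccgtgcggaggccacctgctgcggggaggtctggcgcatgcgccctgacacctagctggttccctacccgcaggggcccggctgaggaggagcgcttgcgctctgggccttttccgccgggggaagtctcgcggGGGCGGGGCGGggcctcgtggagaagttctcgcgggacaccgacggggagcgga
STAT5B: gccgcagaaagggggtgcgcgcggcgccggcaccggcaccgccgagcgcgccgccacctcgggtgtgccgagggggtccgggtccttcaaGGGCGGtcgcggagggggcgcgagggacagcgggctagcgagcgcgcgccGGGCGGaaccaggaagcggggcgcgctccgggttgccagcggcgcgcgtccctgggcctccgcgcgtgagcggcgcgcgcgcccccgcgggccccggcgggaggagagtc
The starts given for ABL1, ABL2 and STAT5B lie inside the span of the gene in the count table, so these genes have other first exons whose promoters are not shown. The motifs, searched on both strands, were the GC box GGGCGG, the ETS motif CCGGAAGT, the E-box CACGTG and the STAT motif TTCNNNGAA. The ABL1 stretch is 78.4% G and C with 2 GC boxes, those of GRB2 and STAT5B are 71.6% and 82% with 3 and 2 GC boxes, and that of ABL2 is 37.6% with none. The median over all 35116 promoters in the table is 58.0%. Promoter entries were given for 9 of the 10 genes, 14 entries in all, and 7 of the 14 (50.0%) held a GC box, beside 42.6% of all promoters. None of the 14 held the ETS motif, the E-box or the STAT motif, which 3.42%, 6.34% and 6.57% of all promoters held. These are matches of letters and not evidence of binding.

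Expression of the kinases and their partners moved in both directions. Of the 10 genes, 4 fell in the inactivated cells (ABL1, ABL2, CBL and NCK1), 3 rose (STAT5B, GRB2 and NCK2) and 3 did not pass the threshold of an adjusted p of 0.05 (CRK, CRKL and CBLB). Of all 14704 genes tested, 59.3% passed, 29.6% higher and 29.7% lower, so 7 of 10 is near the background. For 8 of the 10 genes no control library overlapped the inactivated ones, beside 63.2% of all genes tested. The median log2 fold change (inactivated over control) of the 10 genes was -0.070, beside 0.0031 for all genes tested. ABL1 had the largest change in size, larger than that of 91.4% of tested genes, followed by STAT5B (83.4%), GRB2 (78.4%) and ABL2 (63.1%). These are bulk samples, in which fewer cells with a transcript and less of it per cell cannot be told apart.

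**Figure D1:**
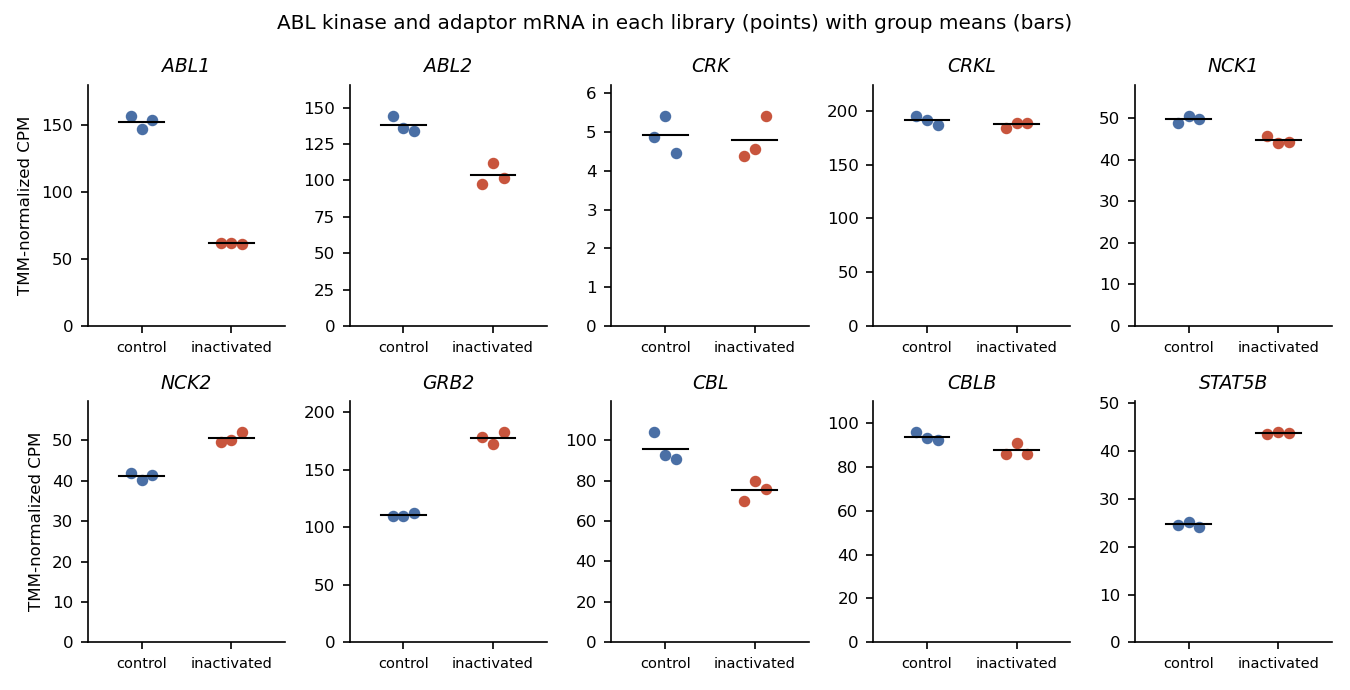
Level of each of the 10 genes in TMM-normalized CPM (counts scaled to the library total) on a linear axis from 0, with 1 point per library, 3 control and 3 inactivated libraries, and a bar at each group's mean. The groups stand apart for 8 genes and overlap for CRK and CRKL.

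The targeted genes come first. ABL1 had 5583, 5127 and 5120 raw counts in the control libraries and 2271, 3092 and 2092 in the inactivated ones, and ABL2 had 5125, 4710 and 4442 against 3568, 5568 and 3473. The raw ABL2 counts overlap, and the inactivated library with 5568 of them was the most deeply read of the 6. To compare genes, levels were divided by the exon length in the table, which gives CPM per kilobase. On that scale ABL1 stood at 22.5, 21.1 and 22.0 in control cells and at 8.88, 8.92 and 8.75 in inactivated cells. ABL2 stood at 8.23, 7.75 and 7.64 and at 5.57, 6.41 and 5.80. For both kinases every inactivated library lay below every control library.

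By edgeR's quasi-likelihood test, ABL1 mRNA in the inactivated cells was 40.4% of the control level, with a 95% interval of 38.0% to 43.0%, and ABL2 mRNA was 75.4% of it, with an interval of 70.0% to 81.2% (adjusted p 5.4e-15 and 1.3e-06, n = 3 libraries per group here and below). The intervals of the kinases do not overlap. ABL1 in control cells was the more abundant of the pair per length, with 73.5% ± 0.636 of their summed level, and this share was 59.9% ± 1.65 in inactivated cells. The summed level of the pair was 29.8 ± 0.920 and 14.8 ± 0.480 CPM per kilobase, so 49.7% of the summed level was left on that scale. The share and the sum depend on the exon lengths, 6991 bases for ABL1 and 17513 for ABL2. Without division by length, ABL1 and ABL2 had means of 153 and 138 CPM in control cells. In inactivated cells these were 61.9 and 104 CPM, so more of the sum was left. Both kinase genes therefore still had reads across the inactivated libraries, and a count per gene does not show whether those transcripts could be translated.

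The spread between libraries of a group differed between the kinases. The coefficient of variation of the ABL1 level was 3.15% in control and 1.01% in inactivated cells, and that of ABL2 was 4.05% and 7.32%. Counting error alone would give 1.38% and 2.01% for ABL1 and 1.45% and 1.54% for ABL2. ABL1 in inactivated cells thus varied no more than counting error. Leaving out any single library kept ABL2 between -0.47 and -0.36 in log2 fold change and ABL1 between -1.34 and -1.28.

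The other genes with the profiles most like those of the kinases were found by Euclidean distance between log2 CPM profiles over the 6 libraries, each centred on its own mean, among 9786 genes. Nearest to ABL1 were EGR1, an immediate early transcription factor (distance 0.0878), FRMD4B (0.0916) and SUSD5 (0.0989). Nearest to ABL2 were HIPK2, a nuclear serine kinase (0.0347), GRIK3, a kainate receptor subunit (0.0477), and DMXL1 (0.0519). The genes near ABL1 had log2 fold changes of -1.34, -1.25 and -1.38, beside -1.31 for ABL1. Those near ABL2 had -0.40, -0.39 and -0.42, beside -0.41 for ABL2. With only control and inactivated libraries, a small distance mostly reflects a like fold change, and shared regulation was not tested.

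CRK and CRKL, the SH2 and SH3 adaptors that carry ABL signals to RAP1 and RAC, did not pass the threshold. CRKL had 195, 191 and 187 CPM in control and 184, 189 and 189 CPM in inactivated libraries. These values overlap, and the 95% interval of the change was -0.11 to 0.055 (log2 fold change -0.028 ± 0.040 (SE), edgeR adjusted p 0.565). CRK had 4.87, 5.41 and 4.46 CPM in control and 4.37, 4.58 and 5.41 CPM in inactivated libraries. The CRK values also overlap (log2 fold change -0.044 ± 0.12 (SE), 95% interval -0.29 to 0.20, edgeR adjusted p 0.769).

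The CRK level is uncertain and its interval is wide. The gene held 148 to 227 counts per library, against 805 to 9375 for the other 9 genes. CRK lies on chromosome 17 from 1420693 to 1456232, reverse strand (GRCh38.p14), and it is the only one of the 10 genes with a second entry in the table, on an alternate scaffold of the same region. That entry had 0 counts in all libraries. It repeats the last exon of CRK at the same length, 2958 bases, and has counterparts to the middle exon forms of nearly the same length, but none to the first exon of 356 bases, which is 9.25% of the gene's exon length. YWHAE and PRPF8, the genes of the same region with a full second entry that were looked at, were also almost unread. YWHAE, an abundant 14-3-3 protein gene, had 139 counts in all 6 libraries together and PRPF8, a core splicing factor gene, had 41. Few counts do not always go with a second entry. Of the 11 genes of the lists below that have 1, BCAR1 held 1141 counts and SOCS7 held 1075. The other genes of the 11 held 46 or fewer. The sources used here do not give how reads with several matches were counted. If all counts of CRK came from its first exon, its control level would be 13.8 ± 1.35 CPM per kilobase instead of 1.28 ± 0.125.

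NCK1 and NCK2, close relatives that join tyrosine-phosphorylated receptors to actin nucleation, moved in opposite directions. NCK2 rose from 42.0, 40.3 and 41.4 CPM in the control libraries to 49.6, 50.2 and 51.9 CPM in the inactivated ones (log2 fold change 0.29 ± 0.047 (SE), 95% interval 0.20 to 0.39, edgeR adjusted p 2.4e-05). NCK1 fell from 48.7, 50.5 and 49.7 to 45.7, 44.1 and 44.3 CPM (log2 fold change -0.15 ± 0.046 (SE), 95% interval -0.25 to -0.055, edgeR adjusted p 0.00825). Neither gene's groups overlap. The NCK1 difference is small, and its call was lost in the counts of lane 2 alone (adjusted p 0.0702). Per length NCK1 was the more abundant, with 81.7% ± 0.572 of the summed level in control cells and 76.7% ± 0.692 in inactivated cells. The sum itself was 11.9 ± 0.126 and 11.5 ± 0.144 CPM per kilobase. The share and the sum depend on the exon lengths, 5085 bases for NCK1 and 18916 for NCK2. In CPM without division by length, the rise of NCK2 was larger than the fall of NCK1. The direction of the summed change therefore depends on the lengths. The exons of NCK1 share 310 bases with IL20RB-AS1 on the other strand, which had 17 counts in all.

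GRB2, the adaptor that brings the RAS exchange factor SOS to receptors, had control levels of 109.7, 109.8 and 113 CPM and inactivated levels of 178, 172 and 182 CPM. The groups lie far apart, and GRB2 rose 1.604-fold, with a 95% interval of 1.51 to 1.70 (log2 fold change 0.68 ± 0.041 (SE), edgeR adjusted p 4.9e-11). STAT5B, which enters the nucleus after phosphorylation and binds target promoters, had 24.5, 25.3 and 24.2 CPM and 43.5, 43.9 and 43.8 CPM. It rose 1.77-fold with an interval of 1.65 to 1.91 (log2 fold change 0.83 ± 0.050 (SE), edgeR adjusted p 5.1e-11). STAT5A, its near-identical relative beside it on the chromosome, had 4 counts over all 6 libraries. The shallowest library held 0 of them, which at its depth allows up to 0.0895 CPM. This bound holds only if reads that also match STAT5B were counted, which the sources used here do not give. Exons of STAT5A and STAT5B on opposite strands share 315 bases.

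CBL and CBLB, the ubiquitin ligases, were both lower on average, and only CBL passed the threshold. CBL fell from 104, 92.8 and 90.9 CPM in the control libraries to 69.8, 79.8 and 75.8 CPM in the inactivated ones (log2 fold change -0.35 ± 0.056 (SE), 95% interval -0.47 to -0.23, edgeR adjusted p 2.6e-05). The coefficient of variation was 7.25% in control cells and 6.71% in inactivated cells, and the lowest control value still lay above the highest inactivated one. CBLB had 95.5, 92.9 and 92.1 CPM in control and 85.7, 90.8 and 85.7 CPM in inactivated libraries. The CBLB groups did not overlap. The CBLB log2 fold change of -0.10 ± 0.043 (SE) had an unadjusted edgeR p of 0.0364 and an adjusted p of 0.0600. Without inactivated replicate 2, which had the highest CBLB level of its group, the adjusted p was 0.0163. The third member of the family, CBLC, had 0 counts in all libraries.

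Whether relatives changed by unequal amounts was tested on the log2 ratio of their levels per library, which needs no scaling between libraries. Of 4 pairs compared, 3 had ratios that did not overlap between the groups. The levels of single genes did not overlap for 63.2% of all genes tested. The share among pairs of other genes was not computed, so 3 of 4 may be near the background. The log2 ratio of ABL1 to ABL2 was 1.48 ± 0.047 in control and 0.58 ± 0.10 in inactivated cells, a difference of -0.89. The ratio of NCK1 to NCK2 differed by -0.45 and that of CBL to CBLB by -0.25. Each of these 3 reached an exact permutation p of 0.1, two-sided, the smallest that 3 against 3 libraries can give, or 0.133 adjusted over the 4 pairs. The ratio of CRKL to CRK differed by 0.011 with overlapping groups (exact permutation p 0.9), and it carries the uncertainty of the CRK counts. No ratio was formed for STAT5B and STAT5A because of the few STAT5A counts.

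The order of levels per length was led by the adaptors. In control cells CRKL came first at 35.8 ± 0.758 CPM per kilobase, then GRB2 at 33.8 ± 0.506 and ABL1 at 21.9 ± 0.689. CBLB (9.96 ± 0.188) and NCK1 (9.76 ± 0.170) had overlapping ranges, as did CBL (8.58 ± 0.622) and ABL2 (7.87 ± 0.319). NCK2 (2.18 ± 0.0461), STAT5B (1.89 ± 0.0403) and CRK (1.28 ± 0.125) were lowest as counted, but CRK at 13.8 from its first exon alone would stand between ABL1 and CBLB. In inactivated cells GRB2 at 54.3 ± 1.54 stood above CRKL at 35.1 ± 0.497, and STAT5B at 3.34 ± 0.0152 stood above NCK2 at 2.67 ± 0.0644, with no overlap in either case. ABL1 at 8.85 ± 0.0894 lay within the range of NCK1 and below that of CBLB. Exon lengths in the table join all annotated transcripts of a gene, so genes with long alternative exons have understated levels.

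**Figure D2:**
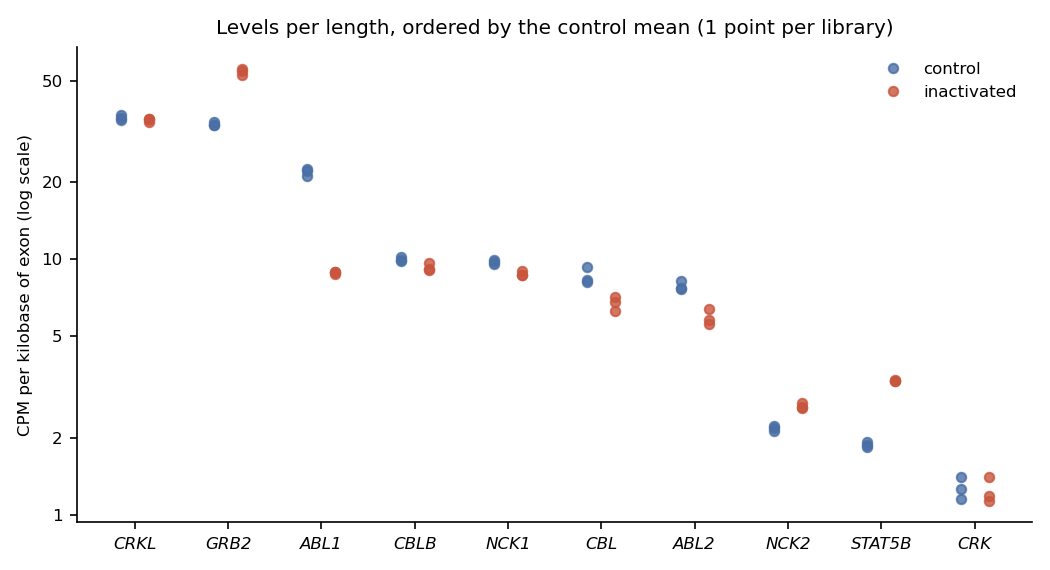
CPM per kilobase of exon on a log axis for the 10 genes, ordered by control mean, with 1 point per library. Inactivated libraries of GRB2, near 54 CPM per kilobase, stand above all other values, and those of ABL1 fall to near 9.

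Some of the 10 genes lie in parts of the genome whose genes shifted together, so each was set beside its expressed neighbours, the 20 tested genes on each side with at least 5 CPM. GRB2 (chromosome 17, 75318076 to 75405678, reverse strand) and STAT5B (same chromosome and strand, 42199177 to 42288370) had neighbours with median log2 fold changes of 0.50 and 0.51. Around GRB2, 38 of 40 neighbours rose and 1 fell, and around STAT5B 36 rose and 2 fell. GRB2 exceeded its neighbours' median by 0.19 and 29 of 40 neighbours had a lower value, and STAT5B exceeded its own by 0.31 and stood above 33 of 40. Whether the shift of the region has a part in the increase of the genes was not tested.

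ABL2 (chromosome 1, 179099330 to 179229677, reverse strand) went against its surroundings. Its neighbours had a median of 0.25, with 27 of 40 higher and 5 lower, and 2 of the 40 had a lower value than ABL2. ABL1 (chromosome 9, 130713043 to 130887675, forward strand) was lower than all 40 of its neighbours, whose median was -0.070. Set against the neighbours, the log2 changes of the kinases were -1.24 and -0.66.

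The neighbourhoods of the other genes were near 0 in the median. NCK2, on chromosome 2 at 105744453 to 105894272, stood above 34 of 40 neighbours with a median of -0.027, and CBL, on chromosome 11 at 119206339 to 119308149, stood below all but 9 of 40 with a median of -0.036. NCK1 (chromosome 3, 136862208 to 136951606), CBLB (chromosome 3, 105655461 to 105869449), CRKL (chromosome 22, 20917407 to 20953747) and CRK near the end of the short arm of chromosome 17 lay in the middle of theirs, with medians of -0.077, 0.013, -0.084 and -0.065. CRK had 25 such neighbours. It is outside the part of chromosome 17 that holds GRB2 and STAT5B.

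**Figure D3:**
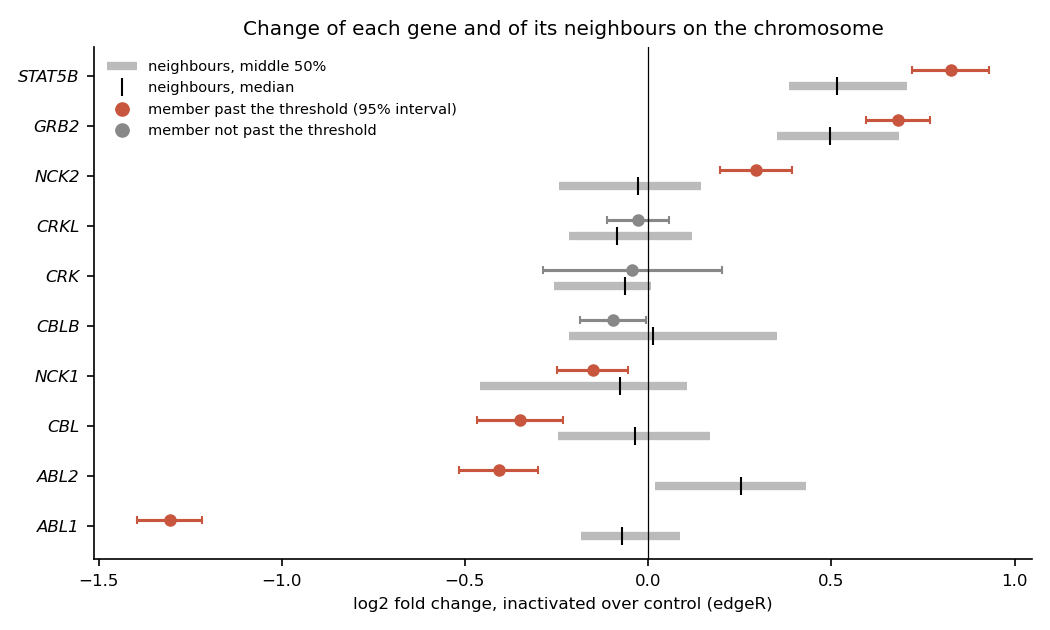
Log2 fold change of each of the 10 genes with its 95% interval (points), above the median and the middle 50% of its neighbours on the chromosome (black mark and grey bar). GRB2 and STAT5B sit at or just past the upper edge of neighbours that are themselves raised, while ABL1 and ABL2 lie to the left of their grey bars.

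**Figure D4:**
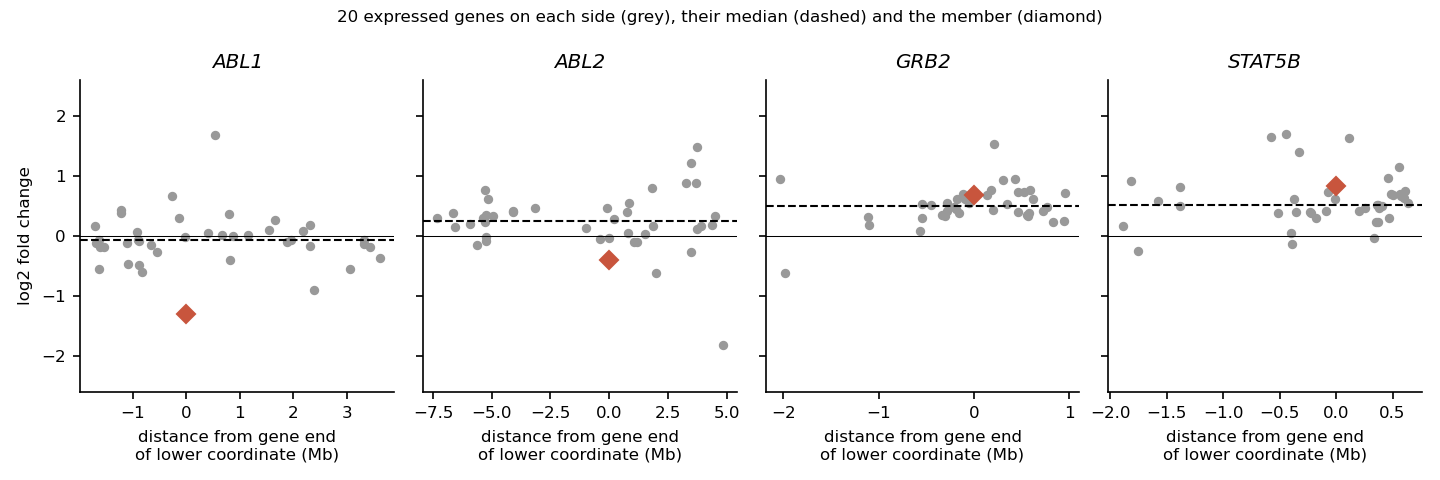
Log2 fold change of single neighbours (grey points) by distance in Mb from the lower coordinate of ABL1, ABL2, GRB2 and STAT5B (diamonds), with the neighbours' median dashed. ABL1 is below all 40 neighbours, and nearly all neighbours of GRB2 and STAT5B are above 0.

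Genes for proteins that work with the 10 were followed in lists, counted in the same fit, with 29.6% of all tested genes higher and 29.7% lower as the background. Of 22 tested ABL binding partners and substrates, 5 rose, 12 fell and 5 were not past the threshold (median log2 fold change -0.18). This median was -0.13 without control replicate 1 and -0.24 without inactivated replicate 3. PTPN12, a phosphatase that acts against ABL signals and whose gene lies on chromosome 7, fell from 59.0 ± 2.497 to 33.5 ± 0.581 CPM. TP73, a p53 relative that ABL1 stabilizes after DNA damage, fell from 24.5 ± 1.10 to 11.9 ± 0.566 CPM. SORBS3, a vinculin-binding adaptor, rose from 0.667 ± 0.0715 to 8.46 ± 0.316 CPM, and ABI1, which joins ABL kinases to the WAVE complex, rose from 53.6 ± 1.10 to 83.4 ± 0.546 CPM. The other 6 genes of the list had too few counts to be tested, among them CTTN, which has a second entry in the table as CRK does.

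Partners of CRK and CRKL had 14 tested genes, of which 3 rose, 4 fell and 7 did not pass (median -0.079). This median was -0.014 without control replicate 1 and -0.051 without inactivated replicate 2. The docking protein gene NEDD9, on chromosome 6, rose from 149 ± 4.205 to 252 ± 5.30 CPM, while PXN, the focal adhesion scaffold paxillin, fell from 139 ± 5.77 to 111 ± 2.20 CPM. RAC1, the GTPase that this branch activates, fell from 188 ± 6.22 to 142 ± 5.99 CPM, and ELMO1, a subunit of its exchange factor, fell from 1.53 ± 0.0976 to 0.707 ± 0.0773 CPM. Partners of NCK1 and NCK2 were divided evenly, with 5 of 14 higher, 5 lower and 4 not past the threshold (median 0.14, or 0.064 without inactivated replicate 3). PAK1, a kinase that NCK recruits, rose from 38.1 ± 1.61 to 62.4 ± 2.31 CPM, and MAP4K4, another such kinase, fell from 185 ± 2.35 to 148 ± 6.56 CPM. The actin-regulating WIPF genes moved apart. WIPF2, on chromosome 17, rose from 65.1 ± 1.94 to 86.8 ± 1.68 CPM, and WIPF1 fell from 25.5 ± 0.515 to 17.4 ± 0.563 CPM.

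Partners of GRB2 and genes that couple it to RAS numbered 17 tested, with 6 higher, 6 lower and 5 not past (median -0.051). With control replicate 2 left out the median was -0.019, with control replicate 3 left out -0.011, and with inactivated replicate 2 left out -0.081. SOS2, a RAS exchange factor, rose from 31.7 ± 1.35 to 52.6 ± 3.67 CPM, whereas its relative SOS1 had 121 ± 3.08 and 126 ± 5.84 CPM and did not pass (edgeR adjusted p 0.248). The docking protein genes IRS2, IRS1 and GAB1 fell, IRS2 from 56.4 ± 0.767 to 25.1 ± 0.473 CPM, IRS1 from 39.3 ± 0.458 to 23.6 ± 0.178 CPM and GAB1 from 23.9 ± 0.754 to 16.0 ± 0.804 CPM. Genes for partners and targets of CBL were mostly called, with 9 of 15 lower, 5 higher and 1 not past the threshold (median -0.23). SH3KBP1, the adaptor CIN85 that CBL uses in receptor uptake, fell from 43.0 ± 0.999 to 13.4 ± 0.352 CPM, and CD2AP, its close relative on chromosome 6, rose from 51.4 ± 1.61 to 97.9 ± 6.32 CPM. SYK, a tyrosine kinase that CBL removes, rose from 2.93 ± 0.213 to 13.1 ± 0.400 CPM, and SPRY2, a feedback inhibitor that binds CBL, fell from 60.7 ± 1.07 to 34.6 ± 0.845 CPM.

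Around STAT5B, 9 JAK kinases and regulators were tested, of which 3 rose and 4 fell (median 0.11). JAK1 fell from 150.2 ± 4.22 to 107 ± 3.89 CPM and the phosphatase gene PTPN1 from 149 ± 2.28 to 95.05 ± 3.75 CPM, while PIAS1 and PIAS3, inhibitors of STAT proteins, rose from 75.6 ± 2.06 to 93.9 ± 2.79 CPM and from 28.8 ± 2.65 to 35.7 ± 1.41 CPM. The STAT genes differed widely from each other. STAT3, on chromosome 17 beside STAT5A and 1 of the 40 neighbours of STAT5B above, rose from 70.7 ± 0.544 to 219.7 ± 2.22 CPM, STAT6 fell from 22.8 ± 1.51 to 5.99 ± 0.268 CPM, and STAT2 and STAT4 rose from 23.4 ± 0.584 to 28.4 ± 1.43 CPM and from 0.664 ± 0.140 to 1.31 ± 0.0269 CPM. Of 10 tested genes listed as targets of STAT5 in blood or liver cells, 5 fell, 1 rose and 4 did not pass. Their median was -0.052, or -0.10 without control replicate 1. The list does not separate targets that STAT5 induces from those it represses. IGF1, a growth factor, fell from 20.8 ± 1.26 to 2.61 ± 0.142 CPM, BCL2L1, which encodes the survival protein BCL-xL, from 177 ± 2.85 to 132 ± 4.44 CPM, CCND2, a D cyclin, from 865 ± 17.7 to 539 ± 19.4 CPM, and BCL6, a repressor, from 5.72 ± 0.431 to 3.56 ± 0.190 CPM. SOCS3, a feedback inhibitor gene on chromosome 17, was the gene that rose, from 1.65 ± 0.152 to 3.04 ± 0.417 CPM (edgeR adjusted p 1.0e-04). CISH and SOCS2, feedback inhibitors that STAT5 induces in many tissues, had 4.30 ± 0.658 and 5.07 ± 0.191 CPM and 12.3 ± 1.56 and 13.6 ± 0.217 CPM in control and inactivated cells and did not pass (edgeR adjusted p 0.0975 and 0.136).

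**Figure D5:**
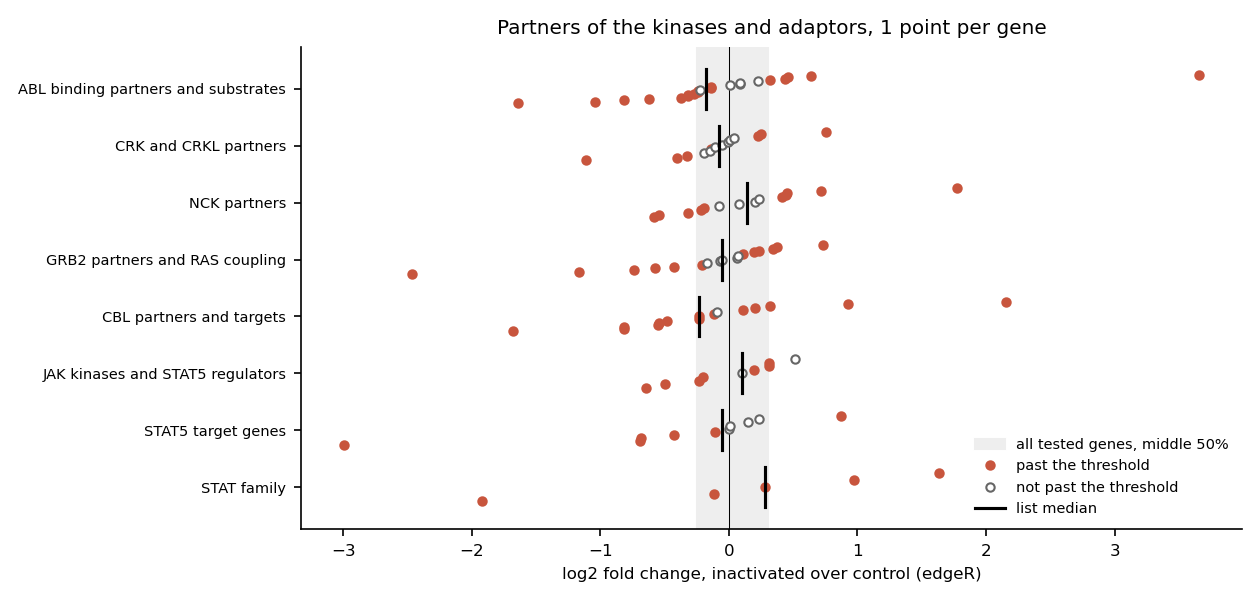
Log2 fold change of each tested gene of the 8 partner lists (1 point per gene, filled where past the threshold), with list medians as black bars and the middle 50% of all tested genes in grey. Every list spreads to both sides of 0, with SORBS3 farthest to the right and IGF1 farthest to the left.

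Markers were checked against the labelled cell type. Of 9 genes typical of Group 3 medulloblastoma, 8 were tested and NRL had 0 counts, a gene with a second entry in the table. Their summed level was 2721 to 2759 CPM in the control libraries and 3333 to 3434 CPM in the inactivated ones. Of the 8, 7 rose and 1, OTX2, fell, beside 29.6% higher and 29.7% lower of all genes tested. MYC, GABRA5 and NPR3 rose least, 1.09-, 1.10- and 1.17-fold. IMPG2, EYS, MAB21L2 and CRX had the lowest p among them, with IMPG2, a photoreceptor matrix gene, rising from 66.7 ± 3.63 to 316 ± 18.4 CPM. IMPG2 lies on chromosome 3 and EYS on chromosome 6. Immune cell markers (6 genes) summed to 0.732 to 1.17 CPM and 0.602 to 1.07 CPM. CD3E and AIF1 were at 0, and most of the sum came from CD68. PTPRC, with 4 counts in all libraries, has a second entry in the table. Endothelial markers (4 genes) summed to 1.96 to 2.48 and 1.87 to 1.91 CPM, nearly all from VWF. Fibroblast markers (6 genes), which tumour lines can express themselves, summed to 42.7 to 46.2 and 33.4 to 36.9 CPM, and 1 of 4 tested rose and 2 fell. COL1A1, a collagen chain gene on chromosome 17, rose from 8.11 ± 0.583 to 15.1 ± 1.04 CPM. PDGFRB, a growth factor receptor, fell from 32.8 ± 1.47 to 18.9 ± 0.739 CPM and DCN, the proteoglycan decorin, from 3.27 ± 0.233 to 0.979 ± 0.115 CPM. COL3A1, which like AIF1 has a second entry, was at 0, and COL1A2 at 0.165 and 0.0950 CPM in the group means. Their part in the results above was not tested.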

How the data were processed

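The authors deposited raw counts per gene and lane, without normalization. Build GRCh38.p14 and, among the tools, featureCounts 1.6.3 and STAR 2.7.2b are named in the submitters' processing notes. Per the labels' protocols, mRNA was enriched and read as 50 bp pairs. The sources used here do not give how strand and reads with several matches were handled. Of 49677 genes, 26 have blank counts and were left out. The deposited exon length, in bases per the file headers, was used for levels per kilobase.

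Lanes were summed per library. Genes were filtered with filterByExpr (minimum count 10, minimum total 15), scaled with TMM factors (trimmed mean of M values) and tested with edgeR 4.0.16 (quasi-likelihood F test, two-sided, Benjamini-Hochberg over 14704 genes, threshold 0.05). Levels are TMM-normalized CPM, mean ± SD over 3 libraries. Log2 fold changes are given ± SE of the fit. The fit was first run on simulated data in which 200 of 14704 genes differed between the groups. There it recovered 76% of the 1.5-fold and 94% of the 2-fold differences, and 5.56% of its 180 calls were false. In the real libraries 59.3% of genes passed, and the fit was not tested at that share. The members and lists were chosen with earlier results of these data known. Named were all 10 members and, from each list, up to 4 genes with the lowest p past the threshold (up to 2 with the highest CPM where none passed), and the 3 profiles nearest to each kinase. SOS1, CISH, SOCS2, SOCS3, CBLC, OTX2, MYC, GABRA5, NPR3, the marker genes at or near 0, CTTN, BCAR1, SOCS7, YWHAE and PRPF8 were named after their values were seen. Alternatives were DESeq2 1.42.0, limma-voom (limma 3.58.1), other scalings, no filter, single lanes and each library left out.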

Additional observations from a re-analysis of the deposited data

How the results depend on the processing

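The directions and calls of ABL1, ABL2, CRKL, NCK2, GRB2, CBL and STAT5B held in all 14 alternatives each (DESeq2, limma-voom, 3 other scalings, no filter on low counts, each lane, each of the 6 libraries left out). With single lanes, NCK1 lost its call in lane 2 alone (log2 fold change -0.12, edgeR adjusted p 0.0702, and adjusted p 0.00859 to 0.0359 by the tool of each of the other 13). CBLB passed without inactivated replicate 2 (-0.12, edgeR adjusted p 0.0163, and 0.0563 to 0.231 in the other 13), with -0.12 to -0.072 over single libraries left out. CRK, which passed in none, changed sign in lane 1 alone (0.011), without control replicate 2 (0.027) and without inactivated replicate 1 (0.012); with single libraries left out it ranged from -0.13 to 0.027. The ratio of CRKL to CRK changed sign in lane 1 alone (-0.036) and ranged from -0.062 to 0.097 with single libraries left out. The cause was not tested. The number of changed genes, 8726, ranged from 7468 to 9328. The scalings moved the median log2 fold change of all genes to 0.031 at most. With other widths or no minimum level, the neighbourhood median of GRB2 was 0.52 to 0.60, that of STAT5B 0.41 to 0.51 and that of ABL2 0.25 to 0.34; those near 0 moved across 0 for ABL1, CRKL, NCK2 and CBLB. Without the filter on low counts, the median of the ABL partners was -0.145 and that of the NCK partners 0.065. In the same setting that of the STAT5 targets was -0.15 and that of the STAT family 0.62. The CRK level per length from its first exon alone (13.8 CPM per kilobase in control cells) was chosen after seeing the data. Depth limits CRK most, with 148 to 227 counts per library. No replicate numbers are shared between the groups in the labels, so no pairing was fitted.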
